A study of Homo sapiens with 6 samples.

Results

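The genes described here are 10 zinc transporter genes, chosen by name from the table of sorted LNCaP cells: SLC39A1, SLC39A6, SLC39A7, SLC39A9, SLC39A10, SLC30A1, SLC30A5, SLC30A6, SLC30A7 and SLC30A9. All 10 were found among the 16000 genes of the table, which holds 18 genes of the SLC39 and SLC30 families in all. LNCaP is an established, androgen-responsive human cell line from prostate cancer. Poly(A) RNA was sequenced from 3 libraries of ALDH high cells, the 10% with the strongest signal for aldehyde dehydrogenase activity in the ALDEFLUOR assay, and from 3 libraries of ALDH low cells, the 10% with the weakest signal. Culture was in RPMI-1640 with 10% fetal bovine serum for both populations, with no other treatment, and the labels do not say how long after the sort RNA was taken. The study compared gene expression between ALDH high and ALDH low cells.

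SLC39 proteins, also called ZIP proteins, bring zinc into the cytosol from outside the cell or from organelles, and SLC30 proteins, also called ZnT proteins, move zinc out of the cytosol. Normal prostate epithelium is known for holding unusually much zinc and for secreting citrate, and prostate cancers are known for holding less. Free zinc in the cytosol is buffered by metallothioneins and sensed by MTF1, which switches on metallothionein genes and SLC30A1.

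The libraries held 23817310 to 30617873 recovered reads. The cells carried the luminal markers of LNCaP, with all 5 of 5 listed in the table, among them KLK3, which encodes prostate-specific antigen, with means of 84410 ± 3629 normalized reads for ALDH high libraries and 87806 ± 12287 for ALDH low libraries (SD, n = 3 each). A normalized read is the read count divided by 1 size factor per library, which did not follow the read total alone. 1 read counted as 1.07 in ALDH low 3 and as 0.976 in ALDH low 2, although ALDH low 3 had more reads. Summed over genes, ALDH low 3 had 29836606 normalized reads, and ALDH high 3, the next highest, had 27114787. Of other cell types, 1 of 5 leukocyte, 2 of 5 endothelial, 1 of 5 fibroblast and 2 of 5 basal markers were in the table. Among those absent were PTPRC, PECAM1 and KRT5, defining genes of leukocytes, endothelium and basal cells, and the fibroblast genes COL1A2, COL3A1, DCN and LUM. Beside COL1A1, those found were CD68 (leukocyte), VWF and CLDN5 (endothelial), and KRT14 and ITGA6 (basal). Their means over all libraries were 23.6, 299, 30.1, 158 and 2996 normalized reads, in that order. COL1A1, the fibroblast marker found, ran from 1469 to 1776 normalized reads in ALDH high and from 821 to 1451 in ALDH low (limma adjusted p = 0.984), and its part in the results below was not tested. The libraries did not fall apart by group: across genes ALDH low 2 had a Pearson r of 0.991 with ALDH high 1 and 0.990 with ALDH high 3, against 0.974 with ALDH low 1 and 0.971 with ALDH low 3, and ALDH high 2 was closest to ALDH low 1, at 0.986. The labels cannot settle whether ALDH high 2 and ALDH low 2 were exchanged, and that was not tested. All differences here hold for the groups as labelled, and each is also given without the libraries numbered 2. Those libraries stand out in these same data, so p-values and counts of genes called without them serve as description only. The labels do not tell whether libraries of a group stem from different sorts, and p-values therefore reflect just the spread among these libraries, which may be technical.

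Between ALDH high and ALDH low cells, no zinc transporter gene showed a difference larger than the spread between libraries. In limma, a linear model fitted to log2(normalized reads + 1) of all genes, 0 of the 10 passed an adjusted p of 0.05, and 0 had an unadjusted p under 0.05. Over all 16000 genes limma called 0 as well, which is 0%, and 338 genes or 2.11% had an unadjusted p under 0.05. edgeR and DESeq2 on the recovered reads also called 0 genes, with 357 and 355 under an unadjusted p of 0.05. That count moved with single libraries: with 1 left out, limma gave from 80 (without ALDH high 3) to 1697 (without ALDH low 2), and 2454 without both libraries numbered 2. The adjusted p of the 10 genes ran from 0.984 to 0.991, and the authors' deposited table gives 0.998 for each. The ranges of ALDH high and ALDH low libraries overlapped in all 10, where 6.99% of all genes had groups that did not overlap, 3.67% with ALDH high above ALDH low and 3.32% with ALDH high below it. Differences below are ALDH high minus ALDH low on the log2 scale, with 95% intervals from limma, and a negative value means less in ALDH high.

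The direction was below 0 in 7 of the 10 genes and above 0 in 3, where 47.7% of all genes lay below 0. The median difference of the 10 genes was −0.07, against 0.02 over all genes. This lean rests on ALDH low 1, without which 4 of the 10 lay below 0 and their median was 0.02, where 49.9% of all genes lay below 0. Without the libraries numbered 2, 8 of the 10 lay below 0 and their median was −0.15. In that setting 49.3% of all genes lay below 0, with a median of 0.006. Total-count scaling gave a median of −0.03 for the 10 genes, against 0.06 over all genes. The differences themselves ran from −0.18 in SLC39A1 to 0.11 in SLC30A7. Every interval included 0 and lay within a 2-fold change either way, as did 94.2% of the intervals among genes averaging 100 normalized reads or more. In sorted bulk cells, fewer cells with a transcript and less of it per cell cannot be told apart.

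**Figure D1:**
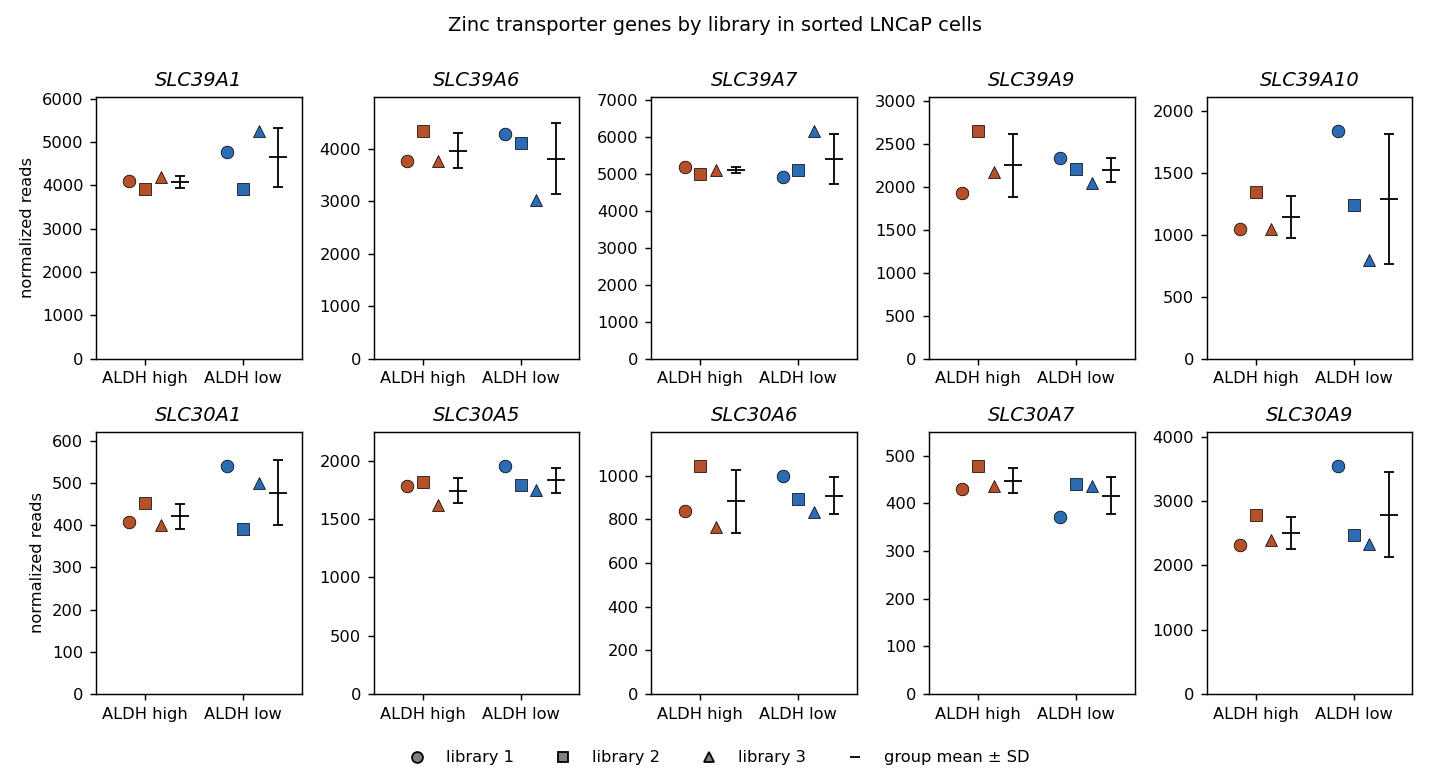
Normalized reads (y axis, from 0) of the 10 zinc transporter genes in the ALDH high libraries (left) and the ALDH low libraries (right) of each panel, with marker shape giving the library number and a bar the group mean ± SD of 3 libraries. The groups overlap in all 10 panels, and SLC39A10 has the widest spread, from 797 to 1843 normalized reads.

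Among the importers, SLC39A1 (ZIP1) is the transporter known for zinc uptake across the plasma membrane of prostate epithelium. The gene lies on chromosome 1, 153959099 to 153968184, minus strand (GRCh38, as are all positions here). It had 4094, 3924 and 4195 normalized reads across ALDH high libraries 1 to 3, against 4761, 3917 and 5263 across ALDH low libraries 1 to 3. ALDH low 1 and ALDH low 3 stood above the other libraries, and ALDH low 2 lay at the lower end beside ALDH high 2. The log2 difference was −0.18 (95% interval −0.52 to 0.16). It shrank to −0.09 without ALDH low 3, and came to −0.30 without ALDH low 2 and −0.27 without the libraries numbered 2 (limma adjusted p = 0.463 in the last of these). Of its exon bases, 69.1% are shared with CREB3L4 on the opposite strand or with AL358472.7 on the same strand. The labels do not say whether the libraries kept strand, so reads of these genes cannot be told apart. Shared exon bases are fewer in SLC39A7 (8.58%, with RXRB), SLC39A9 (5.23%, with ERH) and SLC30A5 (9.20%, with an antisense gene), and none were found in the other 6 genes.

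SLC39A7 (ZIP7, chromosome 6, 33200445 to 33204439, plus strand) releases zinc from the endoplasmic reticulum into the cytosol. Its 3 ALDH high libraries were nearly level, with 5190, 5005 and 5115 normalized reads, against 4927, 5092 and 6167 across ALDH low libraries 1 to 3. Only ALDH low 3 departed from the rest, upward. The difference was −0.07 (−0.40 to 0.25), turning to 0.03 without ALDH low 3 and standing at −0.13 without ALDH low 1 and −0.10 without the libraries numbered 2.

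SLC39A6 (ZIP6 or LIV-1, chromosome 18, 36108532 to 36129385, minus strand) is a plasma membrane importer first known as an oestrogen-induced gene of breast cancer cells. ALDH high libraries 1 to 3 had 3767, 4338 and 3764 normalized reads, against 4287, 4111 and 3029 across ALDH low libraries 1 to 3. Here ALDH low 3 was the lowest library, the reverse of its place in SLC39A7. The difference of 0.07 (−0.30 to 0.44) turned to −0.09 without ALDH low 3, and was 0.16 without ALDH low 1 and 0.06 without the libraries numbered 2.

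SLC39A10 (ZIP10, chromosome 2, 195575977 to 195737702, plus strand) is the closest relative of SLC39A6, and the proteins are known to form a joint complex. It varied most of the 10 genes, with 1049, 1345 and 1047 normalized reads across ALDH high libraries 1 to 3, against 1843, 1241 and 797 across ALDH low libraries 1 to 3. The highest and the lowest library were both ALDH low, 2.31-fold apart, and the ALDH high libraries lay between them. The difference was −0.10 (−0.69 to 0.49). It came to 0.20 without ALDH low 1, −0.41 without ALDH low 3 and −0.21 without the libraries numbered 2.

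Per kilobase of exon, SLC39A6 stood above SLC39A10 in every library. The ratio of the SLC39A6 level to the SLC39A10 level was 6.74, 6.06 and 6.75 across ALDH high libraries 1 to 3, against 4.37, 6.23 and 7.14 across ALDH low libraries 1 to 3. ALDH low libraries held both ends of that range. By the rule for naming genes of like pattern, the 3 genes nearest to SLC39A10 over the 6 libraries were PANK3 (Pearson r = 0.999), LMBRD2 (0.997) and SEC23A (0.996). PANK3, a pantothenate kinase of coenzyme A synthesis, had 2209, 2688 and 2191 normalized reads across ALDH high libraries 1 to 3, against 3295, 2509 and 1835 across ALDH low libraries 1 to 3. These are the best matches among 11506 genes over only 6 libraries, some of which were alike across the groups, and are given as a description.

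SLC39A9 (ZIP9, chromosome 14, 69398015 to 69462388, plus strand) works at the Golgi and plasma membrane and has also been described as a membrane binding protein for testosterone. It had 1928, 2655 and 2170 normalized reads across ALDH high libraries 1 to 3, against 2334, 2210 and 2047 across ALDH low libraries 1 to 3. Both the lowest and the highest library were ALDH high, and the ALDH low values sat inside that range. The difference was 0.02 (−0.33 to 0.37), and −0.10 both without ALDH high 2 and without the libraries numbered 2, but 0.13 without ALDH high 1.

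Among the exporters, SLC30A1 (ZnT1, chromosome 1, 211571568 to 211578742, minus strand) sends zinc out across the plasma membrane. MTF1 binds metal response elements, whose core is TGCACNC or TGCGCNC, and SLC30A1 is one of its textbook targets, so its promoter is shown. The RefSeq sequence (GRCh38.p14) is the 250 bases before the start annotated by RefSeq at 211579161, which lies upstream of the GENCODE 29 start at 211578742, chr1:211579162-211579411, minus strand, with capitals marking the core read on the opposite strand.

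SLC30A1 promoter: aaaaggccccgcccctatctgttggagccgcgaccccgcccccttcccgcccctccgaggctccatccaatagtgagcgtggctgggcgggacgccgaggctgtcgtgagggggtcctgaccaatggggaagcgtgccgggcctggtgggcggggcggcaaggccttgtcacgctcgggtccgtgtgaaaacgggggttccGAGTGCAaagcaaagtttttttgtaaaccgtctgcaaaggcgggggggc

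The marked core starts at −49, counting the start as 0, and a further one starts at 24, beyond the stretch shown. A match is a description of letters and no sign of binding. Searched on both strands of windows from 250 bases before to 50 after the start, the core occurred in 5 of the 13 RefSeq windows of the 10 genes, those of SLC39A1, SLC39A6, SLC39A10, SLC30A1 and SLC30A6, and in 29.6% of all 35116 windows.

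SLC30A1 had 408, 453 and 400 normalized reads across ALDH high libraries 1 to 3, against 540, 391 and 499 across ALDH low libraries 1 to 3. As in SLC39A1, ALDH low 1 and ALDH low 3 were the highest libraries and ALDH low 2 was the lowest. The difference was −0.17 (−0.57 to 0.23). It shrank to −0.07 without ALDH low 1 and came to −0.30 without ALDH low 2. It was −0.36 without the libraries numbered 2, with the smallest adjusted p of the 10 genes in that comparison (limma adjusted p = 0.401). That comparison of 4 libraries called 107 of 16000 genes, or 0.669%, and 0 of the 10 zinc transporters.

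SLC30A5 (ZnT5, chromosome 5, 69093646 to 69131069, plus strand) and SLC30A6 (ZnT6) pair up in the early secretory pathway and, beside SLC30A7 (ZnT7), supply zinc to enzymes such as alkaline phosphatases. SLC30A5 is known for another zinc-responsive element, read by the repressor ZNF658, which pairs CACTCC with GGAGTG. The RefSeq sequence around it is shown because that pairing was rare, with the 6-base ends in capitals, chr5:69093957-69093986, plus strand, GRCh38.p14.

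SLC30A5 element: ggctgggCACTCCcccgGGAGTGagggttg

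The pair, with 0 to 50 bases between its ends, starts at −50 from the RefSeq start at 69094014, inside the gene as GENCODE 29 draws it, and was found in 1 of the 13 windows of the 10 genes and in 49 of all 35116 windows (0.140%). The pair reads the same on the opposite strand. It does not overlap a metal response element core, since the SLC30A5 window held none.

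SLC30A5 was the steadiest of the 10 genes, with 1786, 1820 and 1619 normalized reads across ALDH high libraries 1 to 3, against 1954, 1795 and 1747 across ALDH low libraries 1 to 3. The highest and lowest library were 1.21-fold apart. The difference was −0.07 (−0.38 to 0.23). It was −0.02 without ALDH high 3, −0.03 without ALDH low 1 and −0.12 without the libraries numbered 2. ZNF658 had 102, 141 and 142 normalized reads across ALDH high libraries 1 to 3, against 192, 139 and 88.9 across ALDH low libraries 1 to 3. ALDH low libraries held both ends of the range, and the difference of −0.08 had an interval of −0.75 to 0.60. It was −0.12 without the libraries numbered 2.

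SLC30A6 (chromosome 2, 32165841 to 32224379, plus strand) had 836, 1043 and 766 normalized reads across ALDH high libraries 1 to 3, against 998, 893 and 834 across ALDH low libraries 1 to 3. Here the ALDH high libraries spanned the ALDH low ones. The difference was −0.05 (−0.43 to 0.32). Leaving out ALDH high 3 turned it to 0.04, leaving out ALDH low 1 to 0.02, and leaving out the libraries numbered 2 to −0.19. The ratio of the SLC30A5 level to the SLC30A6 level, each per kilobase of exon, was 1.998, 1.63 and 1.98 across ALDH high libraries 1 to 3, against 1.83, 1.88 and 1.96 across ALDH low libraries 1 to 3. SLC30A5 thus stood above its partner in every library.

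SLC30A7 (chromosome 1, 100896076 to 100981753, plus strand) loads zinc into the Golgi. It had 429, 478 and 436 normalized reads across ALDH high libraries 1 to 3, against 372, 440 and 436 across ALDH low libraries 1 to 3. ALDH low 1 was the lowest library, whereas it was the highest for SLC39A10, SLC30A1, SLC30A5 and SLC30A9. The difference of 0.11 (−0.26 to 0.48) shrank to 0.03 without ALDH low 1, and was 0.15 without ALDH low 2 and 0.10 without the libraries numbered 2.

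SLC30A9 (ZnT9, chromosome 4, 41990472 to 42090457, plus strand) moves zinc out of mitochondria. ALDH high libraries 1 to 3 had 2316, 2783 and 2396 normalized reads, against 3544, 2479 and 2336 across ALDH low libraries 1 to 3. ALDH low 1 stood above all others. The difference was −0.14 (−0.54 to 0.26), with 0.05 without ALDH low 1, −0.25 without ALDH low 3 and −0.29 without the libraries numbered 2.

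**Figure D2:**
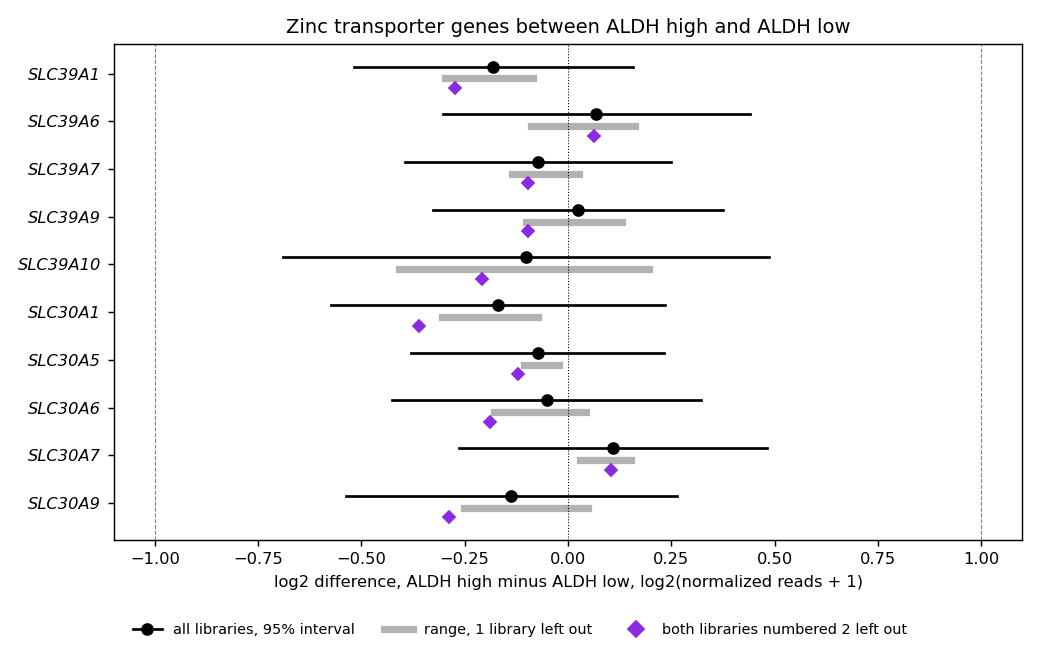
Log2 difference, ALDH high minus ALDH low (x axis), of each zinc transporter gene, with the 95% limma interval over all libraries in black, the range with 1 library left out in grey, and the value without both libraries numbered 2 as a diamond. Dashed lines mark a 2-fold change either way, and all 10 black intervals lie between them and include 0.

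Compared per kilobase of exon, the 10 genes spanned 35.8-fold in mean level. SLC39A7 was the most abundant averaging 1794 ± 32.7 normalized reads per kilobase for ALDH high libraries and 1896 ± 237 for ALDH low libraries (SD, n = 3 each). SLC39A1 followed at 1202 ± 40.4 for ALDH high and 1372 ± 201 for ALDH low, and SLC39A6 at 1075 ± 89.8 for ALDH high and 1035 ± 185 for ALDH low. SLC39A1 exceeded SLC39A6 in 5 of 6 libraries, and their ranges overlapped, so that order is not firm. The place of SLC39A1 is also uncertain because 69.1% of its exon bases are shared with CREB3L4 or AL358472.7. How reads on the shared bases were counted was not tested.

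Below these 3 importers came a step of 2.88-fold to SLC30A9, at 346 ± 34.6 for ALDH high and 386 ± 91.3 for ALDH low. SLC39A9 averaged 315 ± 51.9 for ALDH high and 308 ± 20.2 for ALDH low, below SLC30A9 in 6 of 6 libraries although their ranges overlapped. SLC30A5 averaged 301 ± 18.6 for ALDH high and 317 ± 18.7 for ALDH low and could not be ordered against SLC39A9, since SLC39A9 was higher in only 2 of 6 libraries. SLC39A10, at 166 ± 24.8 for ALDH high and 187 ± 75.9 for ALDH low, overlapped with SLC30A6, at 163 ± 26.6 for ALDH high and 168 ± 15.3 for ALDH low. SLC30A1 was next to last at 76.8 ± 5.24 for ALDH high and 87.1 ± 14 for ALDH low. SLC30A7 was last at 53.4 ± 3.17 for ALDH high and 49.7 ± 4.59 for ALDH low, and the ranges of these last 2 genes overlapped neither each other nor those above. The order rests on exon lengths of GENCODE 29 with all annotated exons of a gene joined, which may exceed the length of the transcripts present.

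**Figure D3:**
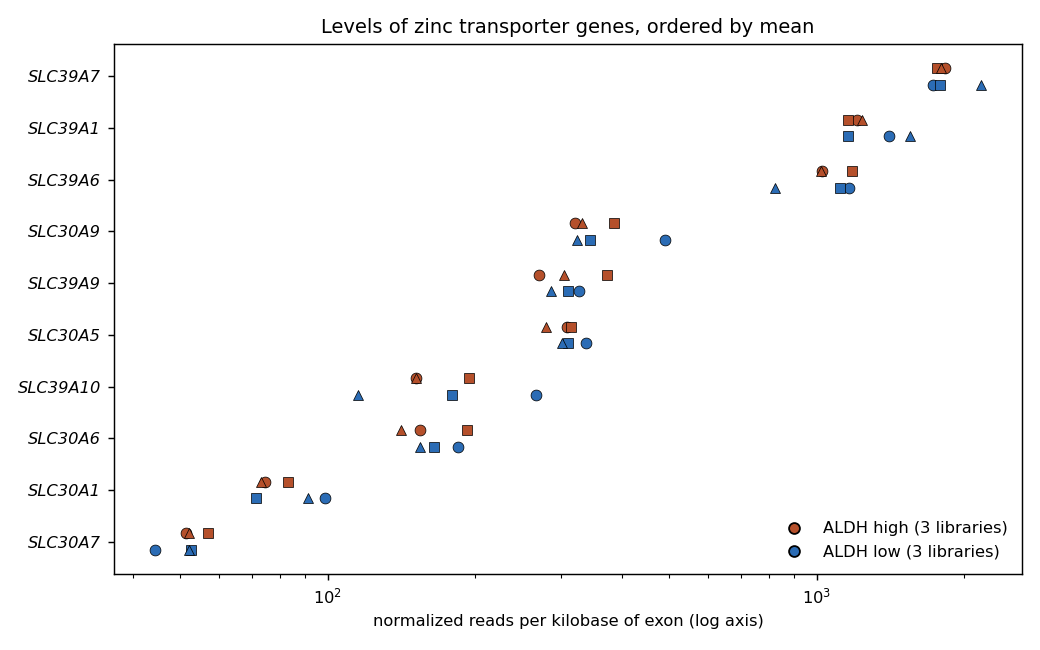
Level of each zinc transporter gene in normalized reads per kilobase of exon (x axis, log scale), ordered by mean, with ALDH high libraries above ALDH low libraries in each row. SLC39A7, SLC39A1 and SLC39A6 lie to the right of the other 7 genes in every library, and SLC30A7 lies lowest at a mean of 51.6.

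The 5 importers summed to 4551 ± 97.7 normalized reads per kilobase for ALDH high libraries and 4797 ± 214 for ALDH low libraries (SD, n = 3 each). For the 5 exporters the sums were 940 ± 81.6 for ALDH high and 1007 ± 129 for ALDH low. These sums leave out the other family genes, among them the exporter SLC30A4 at a mean of 466, and are given as a description, with no test. The importer sums include SLC39A1, whose level is uncertain because of its shared exon bases.

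Over the 6 libraries the median SD of log2 values was 0.17 for the 10 genes, against 0.23 over the 11506 genes averaging 100 normalized reads or more. It was 0.29 for the 8 other SLC39 and SLC30 genes in the table and 0.21 for all 18. Among the 10, SLC39A10 had the largest SD at 0.41, followed by SLC30A9 at 0.24. The SD was larger in ALDH low than in ALDH high in 7 of the 10 genes, near the 68.3% of all genes for which that held. ALDH high 2 and ALDH low 1 were each the highest library for 4 of the 10 genes, where each was highest for 19.9% of all genes. ALDH low 3 was highest for the other 2 and lowest for 2. Over all genes it was highest for 27.5% and lowest for 27.6%, the largest share of any library both ways.

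Of the other 14 SLC39 and SLC30 genes listed, 8 were in the table, and SLC39A2, SLC39A5, SLC39A12, SLC30A2, SLC30A8 and SLC30A10 were not analysed here. limma called 0 of the 8, with 3 differences above 0, 5 below and a median of −0.04, where 47.7% of all genes lay below 0. The 3 with the largest absolute differences were SLC30A3 at 0.22 (−1.66 to 2.10), SLC30A4 at −0.21 (−0.80 to 0.39) and SLC39A3 at −0.21 (−0.60 to 0.19). Without the libraries numbered 2 they were 1.79 in SLC30A3, −0.70 in SLC30A4 and −0.26 in SLC39A3, with 0 called (limma adjusted p from 0.166 to 0.615). SLC30A3, known as the zinc loader of synaptic vesicles, was close to the floor of the table, with 50.3, 6.39 and 29.7 normalized reads across ALDH high libraries 1 to 3, against 5.20, 54.7 and 20.4 across ALDH low libraries 1 to 3. Its lowest library rests on 6 reads. ALDH high 1 and ALDH low 2 were its highest libraries, and ALDH high 2 and ALDH low 1 its lowest.

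SLC30A4, an exporter into intracellular vesicles, varied across libraries in the opposite sense. It had 2773, 5147 and 2675 normalized reads across ALDH high libraries 1 to 3, against 5129, 2990 and 3844 across ALDH low libraries 1 to 3. Its 3 highest libraries were ALDH low 1, ALDH low 3 and ALDH high 2. SLC39A3 had 2195, 2005 and 2195 across ALDH high libraries 1 to 3, against 2163, 2142 and 3202 across ALDH low libraries 1 to 3, with ALDH low 3 above the rest.

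SLC39A4 and SLC39A8 were chosen after their values were seen. SLC39A4, the importer whose loss causes acrodermatitis enteropathica, was level at 1834, 1848 and 1819 across ALDH high libraries 1 to 3, against 1792, 1679 and 3123 across ALDH low libraries 1 to 3. As in SLC39A1, SLC39A3 and SLC39A7, ALDH low 3 was the highest library. SLC39A8, an importer of zinc and manganese, had 396, 170 and 328 across ALDH high libraries 1 to 3, against 308, 401 and 193 across ALDH low libraries 1 to 3. Its differences between libraries of 1 group were larger than its group difference of −0.04 (−0.80 to 0.73), which was 0.56 without the libraries numbered 2.

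**Figure D4:**
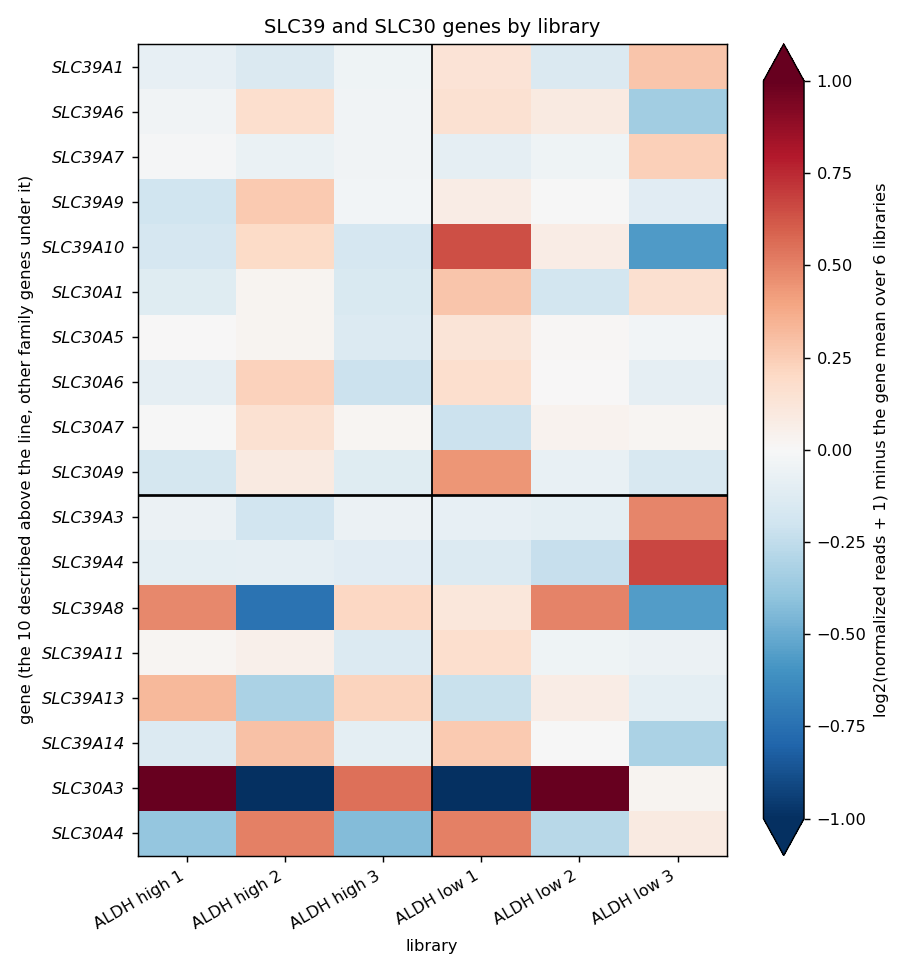
Heat map of the 18 SLC39 and SLC30 genes of the table (rows) by library (columns, ALDH high left of ALDH low), coloured by log2(normalized reads + 1) minus the gene's mean over 6 libraries, with colours capped at −1 and 1. SLC30A3 has the strongest colours of all rows, and SLC39A10 the strongest of the 10 genes above the line.

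No listed gene that binds, senses or uses zinc, and no listed citrate gene, passed the test over all 6 libraries. In each list that follows limma called 0, as it did over all 16000 genes (0%). None of the listed genes had an unadjusted p under 0.05, where 2.11% of all genes did. Of 12 listed metallothionein genes, MT1X and MT2A were in the table and 10 were not. MT2A had 1338, 1782 and 1803 normalized reads across ALDH high libraries 1 to 3, against 1758, 1282 and 2708 across ALDH low libraries 1 to 3. ALDH low libraries held both ends of that range. The difference was −0.17 (−0.72 to 0.38), and that of MT1X was −0.06 (−0.60 to 0.48). Without the libraries numbered 2 these were −0.49 in MT2A and −0.34 in MT1X. Metallothionein genes are close copies of each other, so counts of uniquely placed reads are uncertain for them. The zinc sensor MTF1 had 472, 696 and 525 across ALDH high libraries 1 to 3, against 612, 525 and 420 across ALDH low libraries 1 to 3, a difference of 0.12 (−0.34 to 0.58) that was −0.03 without the libraries numbered 2.

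Of 12 listed zinc enzymes of the secretory pathway, 6 were in the table, and 5 of them lay above 0 with a median of 0.07. The largest differences were those of CA12, a membrane carbonic anhydrase, at 0.47 (−0.22 to 1.16), ENPP1, an ectonucleotide pyrophosphatase, at 0.37 (−0.09 to 0.82), and ENPP3 at 0.09 (−0.51 to 0.70). Without the libraries numbered 2 they were 1.07 in CA12 (limma adjusted p = 0.0767), 0.59 in ENPP1 and 0.21 in ENPP3. CA12 had 832, 514 and 884 normalized reads across ALDH high libraries 1 to 3, against 457, 850 and 365 across ALDH low libraries 1 to 3. Its ALDH low 2 value lay among the ALDH high values and its ALDH high 2 value near the ALDH low ones. ALPL, ALPP and ALPG, the alkaline phosphatases listed, were not analysed here.

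All 6 genes of citrate metabolism listed were in the table, and 4 lay above 0, with a median of 0.10. CS, which encodes citrate synthase, had the largest difference, 0.31 (−0.11 to 0.73), with 8111, 8368 and 8278 normalized reads across ALDH high libraries 1 to 3, against 4980, 8272 and 7090 across ALDH low libraries 1 to 3. ALDH low 1 and ALDH low 3 lay below the other 4 libraries. ACO1, the cytosolic aconitase, had 1545, 1301 and 1544 across ALDH high libraries 1 to 3, against 1011, 1467 and 1098 across ALDH low libraries 1 to 3, a difference of 0.31 (−0.08 to 0.70). In CS and ACO1, ALDH low 2 stood with the ALDH high libraries. ACLY, the enzyme that splits citrate into acetyl-CoA and oxaloacetate, had a difference of 0.11 (−0.28 to 0.51), with its highest library, ALDH high 2, at 17036 normalized reads. Without the libraries numbered 2 the differences were 0.46 in CS, 0.55 in ACO1 and −0.04 in ACLY.

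**Figure D5:**
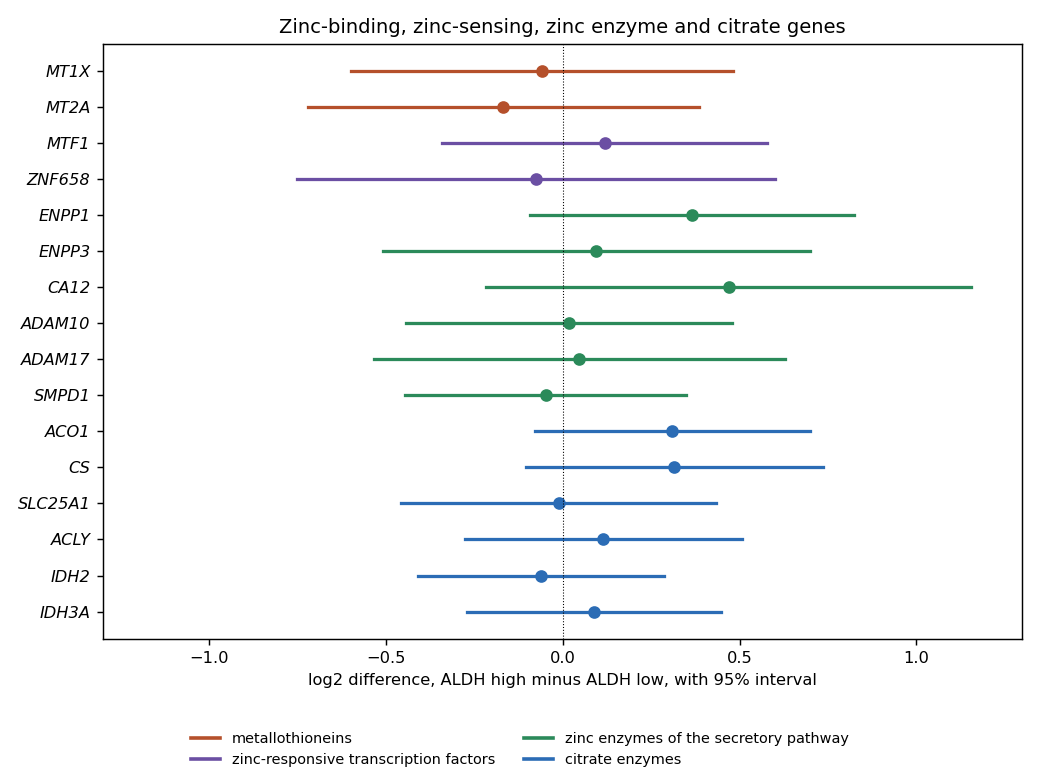
Log2 difference, ALDH high minus ALDH low (x axis), with 95% limma intervals, of the metallothioneins, zinc-responsive transcription factors, secretory zinc enzymes and citrate genes in the table. All 16 intervals include 0, and CA12 is the only gene whose interval passes 1.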

How the data were processed

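Poly(A) RNA of 3 ALDH high and 3 ALDH low libraries was measured. Per the submitters' processing notes, reads were handled with Trimmomatic 0.36, STAR 2.5.2b, featureCounts of Subread 1.5.2 and DESeq2 on GRCh38; per the labels' protocols, uniquely placed reads in exons were counted per gene. No source used here names the annotation release. What the authors deposited is a normalized signal, the read count divided by 1 size factor per library. Beside it, the deposited table gives a log2 fold change by the authors (ALDH low over ALDH high) and a p-value with its adjusted value. Its lowest gene mean is 9.65, so lower genes are not listed.

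ERCC spike-in rows were left out. Whole reads were recovered for the count tests, with at least 99.99% of values whole within 0.02 of a read. limma 3.58.1 (R 4.3.3) with a mean-variance trend was fitted to log2(value + 1) of all 16000 genes, with Benjamini-Hochberg adjustment over all of them and a threshold of 0.05. It was tested on simulated counts drawn independently for each library, which do not hold the likeness between libraries of different groups seen here. Alternatives were edgeR 4.0.16 and DESeq2 1.42.0 on recovered reads, pseudocounts of 0.5 and 5, a minimum mean of 50, total-count scaling, the replicate number as a block, and leaving out libraries. Positions and exon lengths came from GENCODE 29 (15939 identifiers matched), promoters from RefSeq (all 10 genes matched). Named genes were the 10 transporters, the 3 genes with the largest absolute difference of each zinc list, and the 3 most correlated with the most variable transporter; SLC39A4 and SLC39A8 were added after their values were seen. The genes and lists were chosen with earlier results of these data known. 1 gene is not reported here.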

Additional observations from a re-analysis of the deposited data

How the results depend on the processing

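None of the 10 zinc transporters was called under any of the 14 alternatives, where the lowest adjusted p was 0.401 (SLC30A1 without both libraries numbered 2). Over all genes the count stayed at 0 under 13 of them, leaving out 1 library included (0 to 0), and was 107 without both libraries numbered 2; the cause was not tested. Genes under an unadjusted p of 0.05 numbered 80 without ALDH high 3, 131 without ALDH high 1, 177 without ALDH low 1, 730 without ALDH high 2, 1697 without ALDH low 2 and 207 with a minimum mean of 50, which tests fewer genes, against 338. Direction was kept under all alternatives in SLC39A1, SLC30A1, SLC30A5 and SLC30A7. With 1 library or both libraries numbered 2 left out, it turned in 6 others. Values ran from −0.19 to 0.043 in SLC30A6, from −0.29 to 0.049 in SLC30A9, from −0.41 to 0.20 in SLC39A10, from −0.089 to 0.16 in SLC39A6, from −0.13 to 0.027 in SLC39A7 and from −0.10 to 0.13 in SLC39A9. The turned values came without ALDH high 3 (0.043) or ALDH low 1 (0.018) in SLC30A6, without ALDH low 1 in SLC30A9 and SLC39A10, without ALDH low 3 in SLC39A6 and SLC39A7, and without ALDH high 2 (−0.10), ALDH low 3 (−0.026) or both libraries numbered 2 (−0.096) in SLC39A9. The cause was not tested. Of the 14 other genes named with a difference, 0 were called (lowest adjusted p 0.0767, CA12 without both libraries numbered 2), and direction turned in 7. Values ran from −0.049 to 0.22 in ACLY, from −0.34 to 0.20 in MT1X, from −0.49 to 0.12 in MT2A, from −0.043 to 0.24 in MTF1, from −0.61 to 1.79 in SLC30A3, from −0.32 to 0.56 in SLC39A8 and from −0.37 to 0.19 in ZNF658. SLC39A8 also turned under total-count scaling (0.0079), and ACLY (−0.036) and MTF1 (−0.026) without both libraries numbered 2. Total-count scaling moved the median of all genes to 0.06, against 0.02 with the authors' factors. With the replicate number as a replicate block, 0 genes and 0 of the 10 were called. Deviations from the group mean of same-numbered libraries correlated at −0.46, −0.43 and 0.14. Of the 6 libraries, 1 correlated best with its own number. With 3 libraries per group this does not settle whether a number stands for a shared sort, which the labels do not say. Each transporter had at least 350 reads in every library, the lowest being SLC30A1 in ALDH high 3.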
